A study of Mus musculus with 4 samples.

Results

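The genes described here are 9 transcription factors of the STAT and IRF families, Stat2, Stat3, Irf1, Irf2, Irf3, Irf5, Irf7, Irf8 and Irf9, chosen by name from the 24421 genes of the count table. They were read in lung endothelial cells (ECs) of 2 inducible ADAR1 knockout (i-KO) mice from separate litters, male C57/BL6 animals with a labelled age of 2 weeks. ECs were selected with antibodies to CD31 and ICAM-2 and grown in culture, and the cells of each mouse were kept untreated (CON) or were given the tamoxifen metabolite 4-OH-TM (TM), which switches on a Cre recombinase that deletes exons 12 to 15 of Adar, the gene of ADAR1. The 4 libraries (CON and TM of mouse EC1, CON and TM of mouse EC2, n = 2 per group, paired by mouse) all came from cells with the floxed gene and the inducible Cre, whose promoter is not given in the sources used here. No library came from cells that were given TM and could not delete Adar, so that the effects of TM itself and of the deletion cannot be told apart. Where a pair of values is given for CON or TM, the first is EC1 and the second is EC2.

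ADAR1 converts adenosines to inosines in double-stranded RNA, and unedited self RNA can be bound by the sensor MDA5 (Ifih1). Sensors of this kind signal through MAVS to the kinases TBK1 and IKKε, which phosphorylate IRF3 and IRF7, the factors that switch on type I interferon genes. Interferon bound to its receptor activates JAK kinases, and STAT2 and IRF9 then serve as subunits of ISGF3, the factor that binds the interferon-stimulated response element (ISRE) in front of interferon-stimulated genes (ISGs). IRF1 drives genes of antigen presentation and IRF2 can occupy the same sites. STAT3 is the main factor downstream of interleukin 6 family cytokines and binds GAS elements, while IRF5 and IRF8 are best known from myeloid cells and B cells.

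Each gene was measured in 2 ways. The first was the raw count that the authors deposited, of which 1095488 to 1778732 per library fell on genes, 0.823% to 0.858% of all rows of each table, while 92.8% to 93.9% fell on no gene. A count of 0 allows up to 3 counts, or 1.69 to 2.74 CPM, counts per 1000000 on genes. The second was the exonic depth, the median number of reads with the reference or altered base over the sites that the deposited table of candidate editing sites lists in the exons and UTRs of a gene. A library has depth only at sites where it lists an altered read, and 81.6% to 92.5% of the listed exonic sites of the 9 genes had 1 such read, against 82.8% to 83.2% for all genes. Scaled depth is given per 100000000 of the total of the count table of the library. Adar itself had 3 listed sites in exons 12 to 14 in CON of mouse EC1 against 0 in its TM library, and in mouse EC2 the scaled depth there was 118 in CON at 1 site against 31.6 in TM at 2 sites. The other exons of Adar were deeper in TM, at 115 and 123 in CON against 504 and 463 in TM before exon 12, and, although exon 15 is named as deleted, at 74.4 and 109 in CON against 320 and 403 in TM in exon 15. All 10 endothelial markers, among them Pecam1 and Cdh5, had listed exonic sites in every library.

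The sequence in front of the start site was read for the 9 genes from the RefSeq promoters of GRCm38.p6, 250 bases before to 50 bases after each start, of which 12 matched. The ISRE was searched as GAAA, any 2 bases, GAAA, and the GAS element as TTC, any 3 bases, GAA, both on both strands, and a match is a description of letters, not a binding site. Among 32851 promoters of all genes, 3.44% held an ISRE match and 8.30% a GAS match. Of the 9 genes, 2 had an ISRE match (Stat2 and Irf2) and 3 a GAS match (Irf1, Irf2 and Irf8). Counted by promoter, as in the shares over all genes, 2 of the 12 held an ISRE match and 3 a GAS match. The promoters of 3 genes with large differences between CON and TM are shown, with the matches in capitals, to set an ISRE match, a GAS match and a promoter without either beside each other. They are Stat2 (chr10:128270248-128270547, plus strand, ISRE match beginning 222 bases before the start), Irf1 (chr11:53769764-53770063, plus strand, GAS match beginning 90 bases before the start) and Irf7 (chr7:141266375-141266674, minus strand, no match).
Stat2: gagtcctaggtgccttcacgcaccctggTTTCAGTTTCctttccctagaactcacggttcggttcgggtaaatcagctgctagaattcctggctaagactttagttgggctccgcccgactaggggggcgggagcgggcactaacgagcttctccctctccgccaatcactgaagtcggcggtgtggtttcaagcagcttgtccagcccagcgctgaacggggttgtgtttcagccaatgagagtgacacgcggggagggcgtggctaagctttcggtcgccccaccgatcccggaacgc
Irf1: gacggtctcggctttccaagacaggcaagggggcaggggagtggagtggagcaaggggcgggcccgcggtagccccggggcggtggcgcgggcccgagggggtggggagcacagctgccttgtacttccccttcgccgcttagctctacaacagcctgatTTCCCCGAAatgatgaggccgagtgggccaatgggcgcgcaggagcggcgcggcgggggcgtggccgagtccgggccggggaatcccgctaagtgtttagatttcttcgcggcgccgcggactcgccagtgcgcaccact
Irf7: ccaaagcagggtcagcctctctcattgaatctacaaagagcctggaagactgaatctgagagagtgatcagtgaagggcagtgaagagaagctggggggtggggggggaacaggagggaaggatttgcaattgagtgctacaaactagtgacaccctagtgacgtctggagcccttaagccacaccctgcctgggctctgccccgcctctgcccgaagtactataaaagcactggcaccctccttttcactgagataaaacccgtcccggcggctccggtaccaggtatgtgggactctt
The ISRE match of Stat2 lies on the strand opposite to the gene and reads TTTCAGTTTC on the gene's own strand. That of Irf2 reads GAAAATGAAA and begins 241 bases before its start, and its GAS match TTCCGAGAA begins 224 bases before it. Neither promoter of Irf9 held a match.

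Stat2, the STAT subunit of ISGF3, rose in TM by both measures, by 9.07-fold in depth. Its count was 9 and 9 in CON and 98 and 164 in TM, and both TM libraries lay far above both CON libraries. On counts scaled by edgeR's TMM method, the log2 fold change of TM over CON was 3.47 (standard error, SE, 0.42, adjusted p = 6.66e-07 by edgeR over 7899 genes). Among these genes it had rank 81 from the largest rise. Its scaled exonic depth was 73.6 and 81.5 in CON and 712 and 693 in TM, which was 9.67-fold higher in EC1 and 8.50-fold higher in EC2. The log2 fold change of depth was 3.18 (SE 0.27, adjusted p = 4.08e-10 from limma over 6836 genes).

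The TM sites of Stat2 ran along the whole transcript, and the CON sites covered only parts of it. Neither CON library listed a site in the 5′ UTR, and EC2 CON listed none in the 3′ UTR, so no rise can be read there. The listed exonic sites numbered 6 and 6 in CON and 83 and 110 in TM. The lowest TM site had 499 reads in EC1 and 605 in EC2, against a highest CON site of 140 and 137 reads, so that no site of a TM library overlapped a CON site of the same mouse. The coding exons had a median depth of 934 reads in EC1 TM and 1450 in EC2 TM. Sites in the 5′ UTR were deeper, with medians of 1854.5 reads over 6 sites and 3096 over 3 sites, and those in the 3′ UTR had 781 and 1302.5. In each mouse 1 site was listed in both of its libraries, and at these the scaled depth was 9.03-fold and 9.69-fold higher in TM. Intron sites had far fewer reads, with medians of 6.5 and 3 in CON and 63 and 83 in TM. Within each library, the depth of Stat2 stood at percentile 41.0 and 39.1 among genes with at least 3 listed sites in CON, and at percentile 93.9 and 93.2 in TM. Stat2 lies on the plus strand of chromosome 10 at positions 128270559 to 128292849 (mm10), and no exon of another gene lies opposite to its exons.

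**Figure D1:**
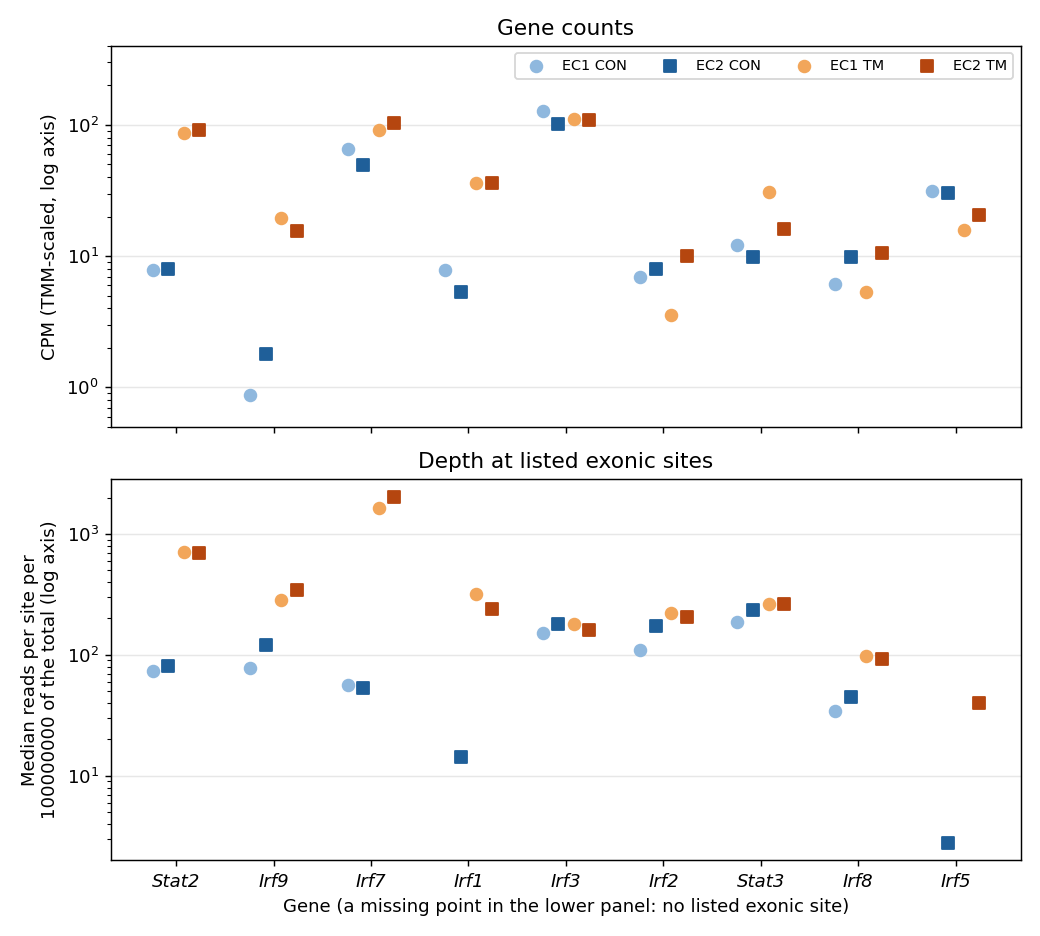
Counts (upper panel, TMM-scaled CPM, log axis) and exonic depth (lower panel, median reads per listed site per 100000000 of the count-table total, log axis) of the 9 STAT and IRF genes, with 1 point for each library. Stat2, Irf9 and Irf1 stand higher in both TM libraries by counts, Irf7 stands at 1654 and 2040 in TM against 56.4 and 53.3 in CON by depth while its CPM are 92.1 and 103 in TM against 65.2 and 49.2 in CON, and Irf3 differs little in both panels.

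Irf9, the DNA-binding subunit of ISGF3, also rose by both measures, by less than Stat2 in depth. Its count was 1 and 2 in CON and 22 and 28 in TM. The CON counts are at the limit of what these tables can resolve. The ratio of TM over CON, from 50 against 3 counts, was 12.9 with an exact interval of 4.17 to 64.7 for counting error only. By edgeR it was called higher (log2 fold change 3.62, SE 0.78, adjusted p = 0.00199), but DESeq2 did not (adjusted p = 0.0625), nor did edgeR without EC1 TM (adjusted p = 0.0755).

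In exonic depth Irf9 was better covered in CON. The scaled depth of Irf9 was 78.1 and 120 in CON and 286 and 347 in TM, over 7 and 9 sites in CON and 14 and 38 in TM, and the groups did not overlap. This was 3.66-fold higher in EC1 and 2.89-fold higher in EC2, with a log2 fold change of 1.70 (SE 0.29, adjusted p = 8.43e-05 from limma). The CON libraries had more depth on Irf9 than on Irf7 or Irf8, and the TM libraries less than on Stat2. Irf9 lies on the plus strand of chromosome 14 at positions 55603571 to 55610030, and as for Stat2, no exon of another gene lies opposite to it.

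By depth Irf7, the interferon-induced factor that amplifies type I interferon expression, was the gene of the 9 that differed most between CON and TM. Its scaled exonic depth was 56.4 and 53.3 in CON and 1654 and 2040 in TM, which was 29.3-fold and 38.3-fold higher in TM. With 2 and 4 listed sites in CON, Irf7 was outside the main test, which asked for 3 sites in every library. With at least 1 site, limma gave a log2 fold change of 5.07 (SE 0.25, adjusted p = 5.67e-06). The 32 sites of EC1 TM had 1427 to 3475 reads and the 47 sites of EC2 TM 2533 to 7020, while no site in CON exceeded 93 reads. At 2 sites listed in both libraries of EC2 the median difference was 40.0-fold. In TM, Irf7 stood at percentile 97.6 and 97.9 of depth, and in EC2 CON at percentile 26.5.

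The counts of Irf7 gave another picture. They were 75 and 55 in CON and 104 and 186 in TM, and the CPM of both TM libraries were above those of both CON libraries. The log2 fold change of counts was 0.78 (SE 0.32) and did not pass (adjusted p = 0.157, edgeR), whereas it passed once the mouse was a replicate block (adjusted p = 0.0312). DESeq2 did not call it with the same block (adjusted p = 0.467). Set against the number of read pairs that its depth and exon length imply, the count was 5.35% and 3.85% in CON but 0.255% and 0.235% in TM. For Stat2 the same share was 0.262% to 0.389% in all libraries. Irf7 lies on the minus strand of chromosome 7 at positions 141262706 to 141266481 (mm10), and 45 of its exonic bases lie opposite to exons of Phrf1. Phrf1 counts were 33 and 42 in CON against 204 and 278 in TM (log2 fold change 2.34, SE 0.34, adjusted p = 1.09e-05 from edgeR). The scaled depth of Phrf1 was 98.4 and 97.5 in CON and 102 and 130 in TM (a log2 fold change 0.23, SE 0.28, adjusted p = 0.680 from limma). Counts of Phrf1 thus moved where its depth did not pass the test, the reverse of Irf7, and the part of strand assignment in this was not tested.

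**Figure D2:**
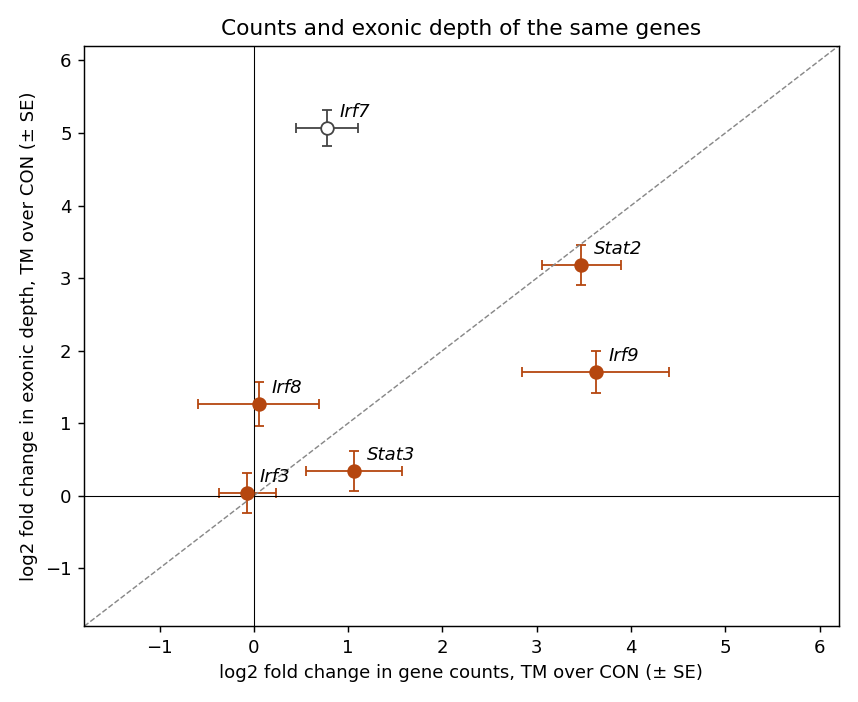
Log2 fold change of TM over CON in gene counts (horizontal axis, edgeR) against that in exonic depth (vertical axis, limma), with bars of 1 SE, for the 6 genes with both values. Filled points had at least 3 listed sites in every library, the open point (Irf7) at least 1, and the dashed line marks equal values. Stat2 lies near the line at 3.47 and 3.18, Irf7 lies far above it at 0.78 and 5.07, and Irf9 lies below it at 3.62 and 1.70.

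Irf3, the constitutive partner of IRF7 that is switched on by phosphorylation rather than by synthesis, showed no change that passed a test. Its scaled depth was 152 and 181 in CON and 179 and 162 in TM, higher in TM in EC1 and lower in EC2. The log2 fold change of depth was 0.04 (SE 0.28, adjusted p = 0.960 from limma), and this sign turned with the depth centred on the median gene (-0.04). Irf3 had the highest counts of the 9 genes in CON. They were 148 and 114 in CON and 125 and 196 in TM, with a log2 fold change of -0.07 (SE 0.31, adjusted p = 0.941 from edgeR). Its counts were 2.57% to 4.30% of those implied by depth, and 88 exonic bases lie opposite to Bcl2l12, whose counts were 78 and 55 in CON and 28 and 63 in TM. In depth Irf3 stood at percentile 65.2 to 68.8 in all libraries, while Irf7 moved from below it in CON to above it in TM.

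Irf1 rose in counts and was scarcely covered in CON. Counts were 9 and 6 in CON against 41 and 65 in TM (log2 fold change 2.44, SE 0.49, adjusted p = 0.000949 by edgeR). Both TM libraries were above both CON libraries. EC1 CON listed no exonic site of Irf1 and EC2 CON listed 2, of 2 and 39 reads, while EC1 TM listed 19 with a median of 417 reads and EC2 TM 16 with a median of 501. Because EC1 CON had no site, depth was not tested, and in EC2 the scaled depth was 14.3 in CON and 242 in TM, 16.9-fold higher. This ratio mixes regions, since the CON value is the median of 1 coding site and 1 site in the 3′ UTR. In EC2 TM, 15 sites were coding and 1 lay in the 3′ UTR. The coding CON site had a scaled depth of 27.2, against 246 at the nearest TM site. In the 3′ UTR the values were 1.39 in CON and 13.5 in TM. Sites placed in introns of Irf1 had a median of 243 reads over 9 sites in EC1 TM and 568 over 11 sites in EC2 TM, against 501 in its exons in EC2 TM. Medians over the intron sites of Stat2 and Irf7 were 57 to 117 reads in the TM libraries. Single intron sites of Stat2 reached 261 reads in EC1 TM and 529 in EC2 TM. In CON, 1 intron site of Irf1 with 6 reads was listed in EC1 and none in EC2. Irf1 lies on the plus strand of chromosome 11 at positions 53770014 to 53778374, and 135 of its exonic bases lie opposite to Gm17334, which had no listed exonic site.

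Irf2, which can compete with IRF1 for its sites, was below edgeR's filter on low counts, its counts being 8 and 9 in CON against 4 and 18 in TM. Its scaled depth was 110 and 173 in CON and 222 and 205 in TM. Both TM libraries were above both CON libraries, by 2.01-fold in EC1 and 1.19-fold in EC2. The log2 fold change of 0.63 (SE 0.29) did not pass limma's test (adjusted p = 0.168). Without EC2 CON it passed (0.95, adjusted p = 0.0254), and without EC1 CON the value was 0.30 (adjusted p = 0.592). In EC2 CON the scaled depth of Irf2 was 173 and that of Irf1, over its 2 sites, was 14.3. In TM the depths of both genes lay between 205 and 316.

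**Figure D3:**
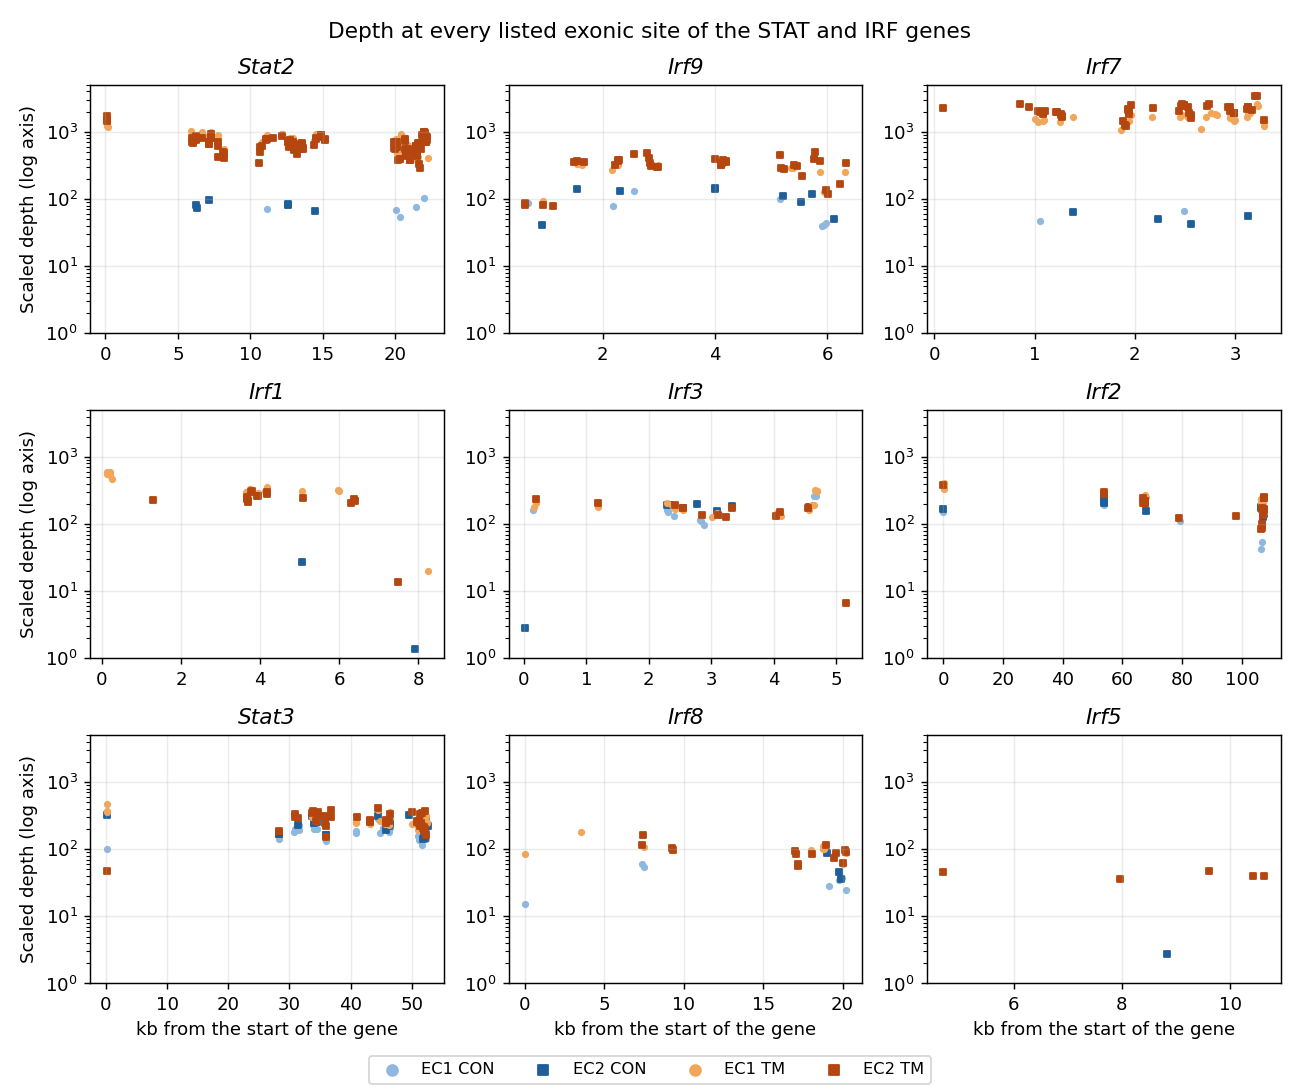
Scaled depth (reads per 100000000 of the count-table total, log axis) at every listed exonic site of the 9 genes against distance from the gene's start in kb, 1 panel per gene and 1 point per site and library. TM sites of Stat2 and Irf7 form a band above all CON sites along the gene, those of Irf9 and Irf8 lie above most CON sites, sites of Irf3, Irf2 and Stat3 intermix, and Irf1 and Irf5 have 2 and 1 sites in CON.

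Stat3 had the greatest depth of the 9 genes in CON and did not pass a test. Its scaled depth was 187 and 233 in CON and 266 and 264 in TM, over 27 to 46 sites. The values in TM were higher by 1.42-fold and 1.13-fold, and the log2 fold change of 0.34 (SE 0.28) did not pass limma's test (adjusted p = 0.495). Counts were 14 and 11 in CON and 35 and 29 in TM, with a log2 fold change of 1.06 (SE 0.51, adjusted p = 0.231 from edgeR). At 3 sites listed in both libraries of EC1, the median difference was 1.30-fold. Stat3 shares 72 exonic bases with Stat5a on the opposite strand.

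Irf8 was called higher in depth and not in counts. Its scaled depth was 34.6 and 45.3 in CON and 97.9 and 92.1 in TM, 2.83-fold and 2.03-fold higher in TM with no overlap of the groups. The log2 fold change of depth was 1.26 (SE 0.30, adjusted p = 0.00428 from limma), and without EC1 TM it no longer passed (1.22, adjusted p = 0.0684). EC2 CON had 3 listed sites, the least the test accepts. The depth ratios mix regions, since these 3 sites all lie in the 3′ UTR, while 9 sites of EC2 TM are coding. In the 3′ UTR alone the unscaled medians were 42 and 65 reads in CON and 113 and 188 in TM. No exonic site was listed in both libraries of a mouse. Counts were 7 and 11 in CON and 6 and 19 in TM, with a log2 fold change of 0.05 (SE 0.64, adjusted p = 0.978 from edgeR), and an SE of this size leaves room for the difference seen in depth. Irf8 lies on the plus strand of chromosome 8 at positions 120736358 to 120756694, with no exon of another gene opposite to it.

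Irf5 was close to the limit of detection in depth. EC1 CON and EC1 TM listed no exonic site, EC2 CON listed 1 of 4 reads and EC2 TM listed 5 with 75 to 98 reads, so that no test was made. Its counts were 36 and 34 in CON and 18 and 37 in TM, with a log2 fold change of -0.74 (SE 0.42, adjusted p = 0.337 from edgeR). Of its exonic bases 14.1% lie opposite to Tnpo3, the largest such share among the 9 genes. Tnpo3 counts were 16 and 26 in CON and 57 and 51 in TM, a rise that did not pass edgeR's test (adjusted p = 0.141). The exonic depth of Tnpo3 did not rise, as TM stood at 0.995-fold of CON in EC1 and 0.827-fold in EC2. This depth difference did not pass limma's test (adjusted p = 0.821). Because IRF5 and IRF8 are known from leukocytes, 11 leukocyte markers were read beside them. Between 8 and 10 of these had no listed exonic site in a library, among them Ptprc, Itgam and Spi1 in all 4, and the summed CPM of the list were 70.3 and 49.1 in CON and 76.6 and 53.4 in TM. Most of these counts were those of Csf1r, at 54 and 50 in CON against 63 and 53 in TM. Depth did not match them, as Csf1r had no listed exonic site except 1 in EC2 TM.

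Over the 9 genes, edgeR tested 8 and called 3 higher in TM (Stat2, Irf1 and Irf9) and 0 lower, against 4.39% of all tested genes called higher and 3.35% lower. At an unadjusted p under 0.05 it gave 5 higher and 0 lower, and DESeq2 called 2 higher and 0 lower. limma tested the depth of 6 and called 3 higher (Stat2, Irf9 and Irf8) and 0 lower, against 6.39% of genes called higher and 5.44% lower, and 4 were higher and 0 lower at an unadjusted p under 0.05. Tested members had a median log2 fold change of 0.92 in counts and 0.94 in depth, against 0.0017 and 0.012 over all tested genes. Since only genes with enough counts or sites were tested, these medians leave out Irf2 in counts and Irf1, Irf5 and Irf7 in depth. In these bulk samples, fewer cells of a kind and less RNA per cell cannot be told apart.

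The order of the members by depth was rearranged between CON and TM. In CON, Stat3 was highest in both mice with 187 and 233, followed by Irf3 and Irf2, whose 4 values of 110 to 181 overlapped. Irf9 (78.1 and 120) and Stat2 (73.6 and 81.5) came next and overlapped, then Irf7 (56.4 and 53.3) and Irf8 (34.6 and 45.3), with Irf1 and Irf5 last or not listed. In TM, Irf7 (1654 and 2040) was highest, then Stat2 (712 and 693), with gaps larger than the spread between mice. Irf9, Irf1, Stat3 and Irf2 followed between 205 and 347 with overlapping values, then Irf3 (179 and 162) and Irf8 (97.9 and 92.1).

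Other STAT and IRF genes were read from the same tables. Stat6, the factor of interleukin 4 signalling, had counts of 70 and 95 in CON and 185 and 234 in TM, and edgeR called it higher (log2 fold change 1.01, SE 0.32, adjusted p = 0.0455). That call was lost under DESeq2 (adjusted p = 0.130) and without any 1 of the 4 libraries (adjusted p from 0.0605 to 0.374). The scaled depth of Stat6 was 78.9 and 114 in CON and 143 and 182 in TM, with a log2 fold change of 0.77 (SE 0.29) that passed limma's test when the mouse was a block (adjusted p = 0.0286) and not in the fit without it (adjusted p = 0.0828). Among its exonic bases 40 lie opposite to Nab2, whose counts were 126 and 189 in CON and 270 and 386 in TM. Stat5a, with counts of 99 and 69 in CON and 109 and 75 in TM, and Stat5b, with a scaled depth of 41.0 and 56.4 in CON and 64.5 and 51.9 in TM, did not pass a test (adjusted p = 0.913 by edgeR and 0.664 by limma). Stat4 and Irf4, which are known from lymphocytes, had 1 to 2 and 0 to 7 counts and no listed exonic site.

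Of the genes upstream, those that sense double-stranded RNA rose in depth, while Traf3, Tbk1, Ikbke and Tmem173 did not pass and Mavs had too few sites for the test. Of 8 genes of RNA sensing, edgeR tested 5 and called 1 higher, Ifih1, the gene of MDA5, whose counts were 2 and 0 in CON against 36 and 53 in TM. limma called 3 of 7 higher in depth and none lower, namely Ifih1 (log2 fold change 4.13), Dhx58 (3.99) and Ddx58 (2.06), and these names were taken after their values were seen. Dhx58 had counts of 49 and 63 in CON and 27 and 35 in TM, which edgeR called lower when the mouse was a block (adjusted p = 0.0141) and not without it (log2 fold change -1.20, adjusted p = 0.0527), against its rise in depth. The rise of Ddx58 in depth was not met in counts either (log2 fold change 0.17, SE 0.35, adjusted p = 0.857 from edgeR). The median log2 fold change was 0.42 in counts and 0.42 in depth. Tbk1 and Ikbke, the kinases of IRF3 and IRF7, had log2 fold changes of depth of 0.42 and 0.39 (adjusted p = 0.384 and 0.476 from limma).

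None of 10 interferon genes had enough counts or sites for a test. Ifnb1, the gene of interferon beta and a target of IRF3 and IRF7, had no count in any library. It had 3 listed exonic sites in EC1 TM with a scaled depth of 91.8 and 3 in EC2 TM with 91.2, and no listed site in either CON library. Ifna5 had 1 listed site of 9 reads in EC1 TM and Ifnk 1 of 1 read in EC2 CON, and the other 7 genes had no listed exonic site.

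Among 9 receptors and JAK kinases, counts called 1 of 7 lower, Il6ra, the interleukin 6 receptor chain upstream of STAT3 (35 and 41 counts in CON against 9 and 22 in TM, log2 fold change -1.69, SE 0.46, adjusted p = 0.0170 from edgeR), and 0 higher. DESeq2 did not call Il6ra (adjusted p = 0.190). Its depth was not tested and did not fall in both mice. In EC1 it was 0.54-fold in TM over 3 listed sites in each library. In EC2, CON listed 0 exonic sites of Il6ra and TM listed 7. Depth called 1 of 8 higher, Jak2 (log2 fold change 1.45, SE 0.28, adjusted p = 0.000497 from limma), and 0 lower, with 3 lower at an unadjusted p under 0.05. The medians were 0.15 in counts and -0.28 in depth. Once the mouse was a block, limma called 3 lower in depth, the interferon receptor genes Ifnar1 (log2 fold change -0.71, adjusted p = 0.0343) and Ifngr2 (-0.68, adjusted p = 0.0326) and the interleukin 6 family receptor gene Il6st (-0.57, adjusted p = 0.0456).

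Of 9 feedback inhibitors, edgeR tested 6 and called 0, with 1 at an unadjusted p under 0.05 and 0 called by DESeq2. Once the mouse was a block, edgeR called 1 higher, Socs1 (log2 fold change 2.71, adjusted p = 0.0184). In depth limma called 3 of 8 higher, Usp18 (log2 fold change 5.30), Trim21 and Ptpn2 (1.21), and 1 lower, Socs3 (-0.96, SE 0.31, adjusted p = 0.0375), which is also a target of STAT3. The fitted value of Trim21 (5.68) rests on a median of 1 read over 3 sites in EC2 CON, and at the sites that CON and TM both list its depth was 10.1-fold higher in EC1 and 11.8-fold higher in EC2. Usp18, which acts on the interferon receptor together with STAT2, had a scaled depth of 51.8 and 30.7 in CON and 1524 and 1624 in TM, while its counts were 34 and 29 in CON and 19 and 45 in TM. As for Irf7, the 2 measures parted.

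The targets of the factors that rose were higher in TM. Of 18 ISGF3 targets, 14 of the 15 tested in counts were called higher and 0 lower, Usp18 being the exception, and 8 of 8 tested in depth were called higher. The median log2 fold change was 4.50 in counts, 4.38 with the genes that had no count in CON set to the bound of 3 counts over the group, and 4.83 in depth. Mx2 and Oas1a, antiviral effectors with the largest fitted changes in counts, had no count in either CON library, and 43 and 46 counts of Mx2 and 12 and 31 of Oas1a in TM. Of 11 IRF1 targets, 9 of 10 were called higher in counts and 6 of 6 in depth, with medians of 3.87 (3.29 with bounds) and 3.70. Once the mouse was a block, edgeR called 10 of them higher. Among these Cd274, the gene of PD-L1, had no count in CON and 34 and 39 in TM, and Psmb8, an immunoproteasome subunit, had no count in CON and 13 and 24 in TM. Both lists were chosen with earlier results of these data known, so that their direction is not independent of the choice.

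The 14 STAT3 targets moved less. edgeR called 1 of 6 higher, Junb (log2 fold change 1.64, SE 0.41, adjusted p = 0.00795), and 0 lower. limma called 3 of 11 higher in depth, Osmr (log2 fold change 1.63), Lcn2 (1.08) and Junb (1.08), and 1 lower, Socs3. At an unadjusted p under 0.05, depth gave 5 higher and 3 lower, and once the mouse was a block limma called 4 higher and 2 lower. The medians were 0.27 in counts and 0.57 in depth. Of 3 IRF2-binding proteins, edgeR called 1 higher, Irf2bp2 (log2 fold change 1.49, SE 0.41, adjusted p = 0.0194), and depth called 0 of 3, with 2 at an unadjusted p under 0.05 and 1 when the mouse was a block. The medians were 0.72 in counts and 0.63 in depth. DESeq2 called none of these genes.

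**Figure D4:**
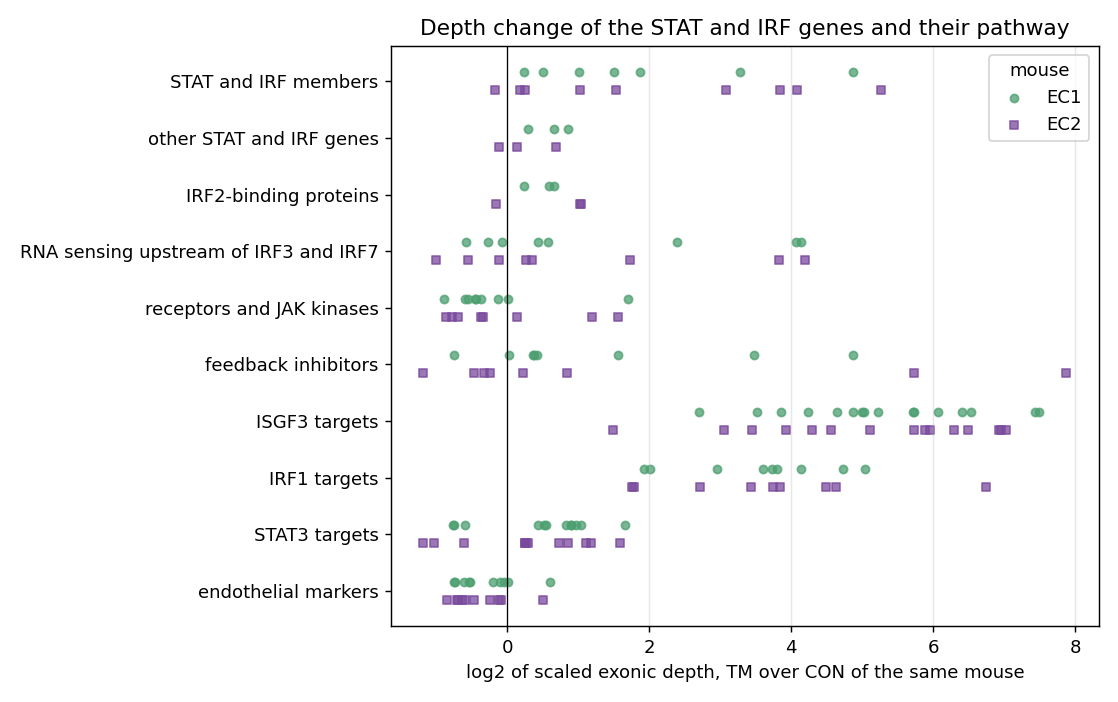
Log2 of scaled exonic depth, TM over CON of the same mouse, for the STAT and IRF genes and the lists around them, with 1 point per gene and mouse for genes with at least 1 listed exonic site in both libraries (circles EC1, squares EC2). Every plotted value of the ISGF3 targets (16 in EC1 and 15 in EC2, of 18 genes) and IRF1 targets (9 and 9 of 11) lies above 0. So do all values of the STAT and IRF members except Irf3 in EC2, while receptors and kinases, STAT3 targets and endothelial markers lie on both sides of 0.

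Other cell markers were read beside these lists. Of the 10 endothelial markers none was called by edgeR, limma or DESeq2, with a median log2 fold change of -0.15 in counts and -0.40 in depth, and at an unadjusted p under 0.05 counts gave 1 lower and depth 4 lower. In the fits with the mouse as a block, 1 was called lower in counts and 4 in depth. The summed scaled depth of 8 fibroblast and smooth muscle markers was 573 and 893 in CON and 205 and 318 in TM, lower in TM in both mice. Their summed CPM differed less, at 562 and 509 in CON and 557 and 478 in TM. Of these markers edgeR tested 3 and limma 1, and both called 0, while limma called 1 lower once the mouse was a block. The part of these markers in the changes of the STAT and IRF genes was not tested. Of 5 epithelial markers, 3 to 4 had no listed exonic site in a library, and their counts summed to 2 to 11.

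Candidate editing sites in the 9 genes were few under the criteria of the study, by which a site needs 5 reads or more, 3 or more of them altered, and a rate from 0.05 to 0.95. Of 957 listed sites assigned to the genes, 4 (0.418%) passed in at least 1 library, against 2.01% of the 1205261 sites of all genes. None of 624 exonic sites passed, against 0.619% of all exonic sites. The passing sites numbered 0 and 0 in CON and 1 and 4 in TM. No CON library listed more than 6 reads at these 4 sites, against up to 138 in TM, so this tally does not compare editing rates. The share that passed depends on depth too, since deep sites need many altered reads to reach a rate of 0.05. At listed exonic sites of the 9 genes the median rate was 0.562% and 0.435% in CON and 0.185% and 0.128% in TM.

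Of these, 2 lie in introns of Irf7. At position 141263453 of chromosome 7 (mm10), 1 of 6 reads was altered in EC1 CON, 5 of 32 in EC1 TM and 12 of 48 in EC2 TM, with no reads listed in EC2 CON. The rates were 0.167 (95% Wilson interval 0.030 to 0.563), 0.156 (0.069 to 0.318) and 0.250 (0.149 to 0.388), and the intervals overlap. At position 141264487, 3 of 83 reads were altered in EC1 TM and 10 of 138 in EC2 TM, and neither CON library listed the site. The third site lies 5′ distal to Stat3 in a B1_Mus1 repeat at position 100952986 of chromosome 11, with 1 of 6 altered reads in EC2 CON and 3 of 9 in EC2 TM. The fourth lies 5′ distal to Irf2 at position 46738408 of chromosome 8, with 3 of 20 altered reads in EC2 TM. These intervals cover counting error only. Fisher's exact test on reads could be made at 1 site of the 9 genes in each mouse and called 0 of them (adjusted p = 1), while it called 67 of all 28574 sites tested in EC1 and 195 of 27599 in EC2. With 2 mice, an exact sign permutation cannot go below p = 0.5.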

How the data were processed

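RNA libraries of the ECs were analysed, CON and TM of the mice EC1 and EC2. Per the labels, Trimmomatic 0.38, STAR 2.6.1a (mm10) and HTSeq 0.11.2 were used, and the authors deposited raw gene counts, made with default settings. The library kit keeps strand, and whether the counting setting matched it was not tested. A table of A-to-G candidate sites, called with BCFtools mpileup, was also deposited, with read counts and the altered fraction of each library. Columns of that table were given to libraries by equality with a supplementary table at 1998 of 1998 sites. Annotation was GENCODE vM21, not known to be the authors'.

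The gene counts were fitted in edgeR 4.0.16 by condition, after filterByExpr and TMM scaling, with the quasi-likelihood test, and exonic depth was fitted in limma 3.58.1 (eBayes with trend, log2 of scaled depth, at least 3 listed sites in every library), with Benjamini-Hochberg adjustment at 0.05 over all genes tested. Alternatives were another tool (DESeq2 1.42.0), a replicate block for the mouse, other filters, scalings and site sets, and leaving out 1 library at a time. Both cultures came from the same mouse, which gives the pairing, and the deviations of CON and TM of a mouse from their group means correlated with r = 0.163 in counts and 0.100 in depth. The scripts, in R 4.3.3 and Python 3.11.15 (pandas 2.3.3, scipy 1.17.1, numpy 2.4.6), were tested on simulated data.

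The members and lists were chosen with earlier results of these data known. Named were the members, the other STAT and IRF genes, genes with exons opposite to members, and of each list the 2 largest changes called in counts. Names outside this rule were chosen after their values were seen. An exact permutation test of 2 against 2 libraries cannot go below p = 0.333. Some genes of the families are not reported here.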

Additional observations from a re-analysis of the deposited data

How the results depend on the processing

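With each mouse as a replicate block, edgeR called 1184 genes in counts (612 without it) and limma 1326 in depth (809 without it). In these fits the pairing changed the call of Irf7 in counts (not in DESeq2) and of Stat6 in depth and of no other STAT or IRF gene, and Irf8 in counts had a log2 fold change of -0.016 under it. DESeq2 called 362 genes, and 401 with the replicate block. At least 10 counts in every library left 0 members called in counts, and at least 10 listed sites left 0 in depth (539 genes in all), both by testing fewer members. With only sites that CON and TM of a mouse both list, 1 member and 91 genes were called in depth, again with fewer genes tested. Centring on the median gene called 1442 genes in depth and gave -0.040 for Irf3, and the cause was not tested. Leaving out 1 library at a time gave 371 to 912 genes in depth (371 without EC1 TM, 391 without EC2 TM), log2 fold changes in counts of -0.23 to 0.095 for Irf3, -0.27 to 0.42 for Irf8 and -0.82 to 0.37 for Stat5a, and -0.094 to 0.16 in depth for Irf3. Of the 4 passing editing sites, 2 remained with at least 5 altered reads, 2 with sites listed in both libraries, 0 by Fisher's exact test, and 1 to 4 with 1 library left out, the 1 being without EC2 TM. Sites off opposite-strand exons, an alternative chosen after seeing the data, changed no call of a member in depth. Precision was limited by the low counts, by the few listed sites in CON and by 2 mice.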
